A study of Mus musculus with 6 samples.

Results

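The Fos, Jun and Egr genes were followed in lacrimal gland buds with and without the Pea3 family of Ets transcription factors. The 10 members, Fos, Fosb, Fosl1, Fosl2, Jun, Junb, Jund, Egr1, Egr2 and Egr3, were taken by symbol from the 23420 genes of the count tables. The lacrimal gland buds off the conjunctival epithelium next to the eye, and at embryonic day E14.5 the bud epithelium was cut from frozen sections by laser capture and its polyadenylated RNA was sequenced. The 3 control samples carried Le-Cre alone, and the 3 Pea3 TKO samples carried Le-Cre with Pea3-/-, Ermfl/fl and Er81fl/fl alleles, all on a mixed background. Pea3, Erm and Er81 are the proteins of Etv4, Etv5 and Etv1. Le-Cre is driven by a Pax6 enhancer in the surface ectoderm of the eye, so that Erm and Er81 were targeted in cells that express it or descend from them, whereas Pea3-/- was present in every cell of the embryo. The labels do not say whether the samples of a group came from separate embryos, and the p-values therefore measure only the spread between these samples.

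Immediate early genes are transcribed within minutes of a signal, without the need for new protein. Fos proteins form dimers with Jun proteins, and the resulting AP-1 factors bind a palindromic sequence near genes of growth, differentiation and matrix turnover, while Egr proteins bind GC-rich sites through zinc fingers. In many cells the ERK arm of receptor tyrosine kinase signaling, which includes FGF signaling, leads through ternary complex factors and serum response factor (SRF) to Fos and Egr1, and stress kinases and cutting or dissociation of tissue also bring these genes on. In the lacrimal gland bud, Fgf10 from the mesenchyme signals to the epithelium, where the Pea3 family lies downstream.

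Of the 10 members, 7 had enough reads to be tested, and 6 of them were higher in Pea3 TKO than in control: Fos, Fosl2, Jun, Junb, Egr1 and Egr2. All 7 tested members had a positive log2 fold change. The threshold was a Benjamini-Hochberg adjusted p under 0.05 in the edgeR quasi-likelihood test, which 25.0% of all 13087 genes tested passed in either direction and 13.6% passed as increased. Egr2 had enough reads to be tested only through the Pea3 TKO samples, so that a high level there set its place among the tested genes and, without it, 5 of 6 increased. Jund did not pass. The 3 remaining members, Fosb, Fosl1 and Egr3, had at most 10 reads in any sample and were not tested.

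Promoters are shown for the members whose short windows held the sequences by which immediate early genes are usually described, since these members were higher together. RefSeq start sites on GRCm38.p6 gave windows from 250 bases before to 50 bases after the start for 7 of the 10 members, in 11 windows. The members with a window were Fos, Fosb, Fosl2, Jun, Junb, Jund and Egr2. Both strands were searched, and capitals mark the matches. They are TGACG, the core of a cAMP response element, in Fos, Junb and Egr2, TGACNTCA, an AP-1 and CREB type site, and a MEF2 box in Jun, and a CArG box, the SRF site, in Egr2. TGACNTCA contains TGACG where its open base is G, which was not so in Jun.
Fos, chr12:85473640-85473939, plus strand: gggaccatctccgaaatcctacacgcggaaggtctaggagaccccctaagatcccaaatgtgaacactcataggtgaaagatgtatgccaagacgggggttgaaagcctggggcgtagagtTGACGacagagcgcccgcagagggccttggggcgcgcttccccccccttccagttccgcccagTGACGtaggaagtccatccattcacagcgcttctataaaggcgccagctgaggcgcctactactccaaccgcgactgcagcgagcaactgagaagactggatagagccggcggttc
Jun, chr4:95052173-95052472, minus strand: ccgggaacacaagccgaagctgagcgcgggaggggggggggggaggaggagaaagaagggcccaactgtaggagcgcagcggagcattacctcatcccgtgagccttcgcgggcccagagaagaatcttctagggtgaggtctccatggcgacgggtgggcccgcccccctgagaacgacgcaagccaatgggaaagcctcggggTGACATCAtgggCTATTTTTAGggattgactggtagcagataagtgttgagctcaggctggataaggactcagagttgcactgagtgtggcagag
Junb, chr8:84978699-84978998, minus strand: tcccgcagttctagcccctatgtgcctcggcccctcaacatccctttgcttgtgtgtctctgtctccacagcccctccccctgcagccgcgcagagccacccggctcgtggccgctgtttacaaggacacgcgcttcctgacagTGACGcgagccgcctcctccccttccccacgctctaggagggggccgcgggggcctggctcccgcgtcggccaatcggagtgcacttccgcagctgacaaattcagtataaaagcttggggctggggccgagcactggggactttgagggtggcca
Egr2, window 3 of 5, chr10:67537619-67537918, plus strand: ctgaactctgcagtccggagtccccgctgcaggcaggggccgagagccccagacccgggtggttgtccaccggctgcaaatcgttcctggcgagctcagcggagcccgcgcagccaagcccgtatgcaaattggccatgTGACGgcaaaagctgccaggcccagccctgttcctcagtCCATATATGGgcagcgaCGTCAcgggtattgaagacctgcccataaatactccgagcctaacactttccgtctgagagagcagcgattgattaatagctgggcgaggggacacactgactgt
The Fos window held TGACG at -129 to -125 and again at -66 to -62, counted from the start site. In Jun, TGACATCA lay at -45 to -38 and the MEF2 box, CTATTTTTAG, at -33 to -24. The Egr2 window had the CArG box CCATATATGG at -72 to -63, between TGACG at -111 and its reverse complement CGTCA at -55. Junb had TGACG at -106. Among all 32851 promoter windows of the same length, TGACG was present in 20.8%, TGACNTCA in 8.83%, the CArG box in 1.63% and the MEF2 box in 0.557%. Of the other members, Fosb had TGACG at -60 and an Egr-type site, GCGNGGGCG, at -50, and Fosl2 had GCGNGGGCG at -79 (5.55% of all windows). The RefSeq window listed for Jund, chr8:70697489-70697788, ended before the start of the gene in GENCODE M21 and is not described further. The other motifs searched were TGANTCA, the AP-1 site, not found in the members' windows and in 7.81% of all windows, and CCGGAA, an Ets-type site, found in the second Egr2 window and in 14.9% of all windows. These matches describe letters in a short window and were not measured as binding.

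Sample totals ran from 14194775 to 17860140 counts, so that 3 reads corresponded to 0.168 to 0.211 CPM, the reads of a gene scaled to a common library size by TMM and the unit of all levels below. The intervals and this floor cover counting error or the spread of these samples only. The targeted family was lower in every Pea3 TKO sample: Etv5 stood at 961 to 1202 CPM in controls and 88.2 to 177 CPM in Pea3 TKO, and Etv4 at 129 to 184 and 10.9 to 28.4 CPM. Etv1 stood at 28.7 to 33.9 CPM in controls and 9.21 to 9.99 CPM in Pea3 TKO. Epithelium markers were present in all samples, with a summed level of 3153 to 4148 CPM in controls and 7498 to 8450 CPM in Pea3 TKO. Of these markers, 8 of 10 increased, beside 13.6% of all genes, with the smallest p in Krt14, Cldn4, Cdh1 and Pax6. Epcam (log2 fold change -0.17) and Grhl2 (0.19) did not pass. The mean of Krt5 rose from 197 to 1630 CPM and that of Krt14 from 88.2 to 610 CPM. The paper reports both as ectopic in the mutant bud and normally epidermal or, for Krt5, also conjunctival. Mesenchyme markers summed to 19.2, 24.4 and 117 CPM in the controls and to 404, 567 and 14.2 CPM in Pea3 TKO replicates 1, 2 and 3, and 2 of 10 increased, Dcn and Lum, both with overlapping groups. Endothelium markers summed to 2.49 to 3.55 CPM in controls and 10.2 to 32.01 CPM in Pea3 TKO, where Flt1, the 1 increased marker, made up 7.68, 21.6 and 31.8 CPM, and Tie1 and Emcn were at 0 in all samples, while 0 of 5 tested blood and immune markers were called by edgeR, at an unadjusted p under 0.05 or by DESeq2. Dcn, Lum and Flt1 had enough reads to be tested only through the Pea3 TKO samples, so that a high level there set their place among the tested genes. Transcripts of 4 Y-linked genes were abundant in all controls and in Pea3 TKO replicate 3 (2177 to 3099 counts) and nearly missing in Pea3 TKO replicates 1 and 2 (7 and 3 counts). The part of these differences in the results was not tested beyond the values given beside them. In a bulk sample, fewer cells of a type and less RNA per cell cannot be told apart.

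**Figure D1:**
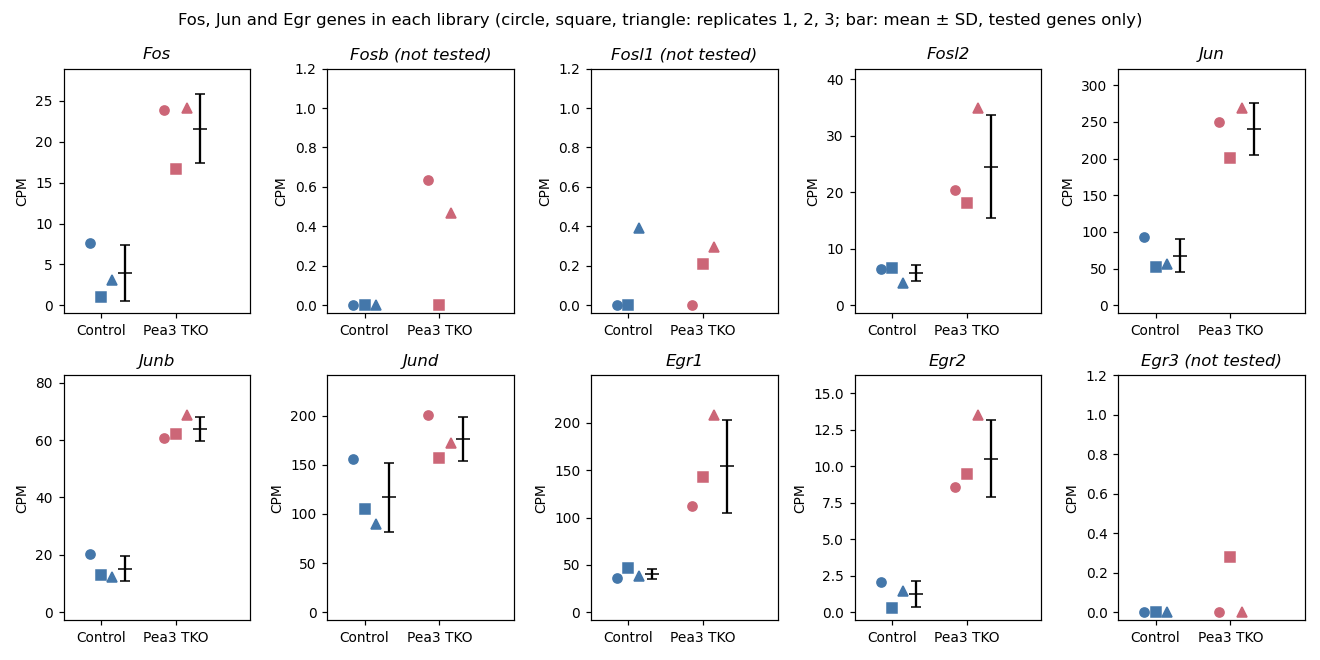
Level of each of the 10 members in CPM (vertical axis, 1 panel per gene) in the 3 control and 3 Pea3 TKO samples. Points are samples, and bars are the mean and SD of the tested genes. In all 7 tested members the Pea3 TKO points lie above the control points, with the narrowest gap in Jund.

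Fos, the founding member of its family and the partner that lends AP-1 dimers their strength, was one of the scarcer members in control buds. Its level was 7.67, 0.997 and 3.12 CPM in control replicates 1, 2 and 3, and 23.9, 16.7 and 24.1 CPM in Pea3 TKO. The groups did not overlap, as in 22.5% of tested genes with every Pea3 TKO sample above every control. Control replicate 1 was closest to the Pea3 TKO samples, and the control spread was wide, with 136, 16 and 48 reads in control replicates 1, 2 and 3. The mean rose from 3.93 ± 3.41 to 21.6 ± 4.23 CPM (SD, n = 3 each), a log2 fold change of 2.45 ± 0.57 (SE) with a 95% interval of 1.18 to 3.72 and an adjusted p of 0.0128. The Fos gene lies at chr12:85473890-85477273 on the plus strand.

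Fosl2 encodes Fra-2, a Fos protein without the strong activation domain of Fos. It was at 6.43, 6.54 and 4.03 CPM in the controls and at 20.5, 18.1 and 34.9 CPM in Pea3 TKO. The 3 controls were close together, and Pea3 TKO replicate 3 stood above the other two mutants. The log2 fold change was 2.11 ± 0.33 (95% interval 1.38 to 2.85, adjusted p = 0.00194). The gene lies at chr5:32135801-32157842 on the plus strand.

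Fosb and Fosl1, which encode FosB and Fra-1, were near the limit of detection. Fosb had no read in any control and 10, 0 and 8 reads in Pea3 TKO, and Fosl1 had 0, 0 and 6 reads in controls and 0, 3 and 5 in Pea3 TKO. Both groups included samples without a read for Fosl1, and for Fosb a mutant sample was at 0 as well. Exons of Fosl1 overlap those of Ccdc85b on the other strand over 1163 bp, and whether the counting used strand is not given in the sources used here.

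Jun, the central partner of AP-1 and a substrate of JNK, was abundant already in control buds. It was at 93.4, 52.5 and 56.8 CPM in the controls and at 250.3, 201 and 269 CPM in Pea3 TKO. Every mutant sample was above the highest control, which was replicate 1. The mean rose from 67.6 ± 22.5 to 240.0 ± 35.3 CPM (SD, n = 3 each), with a log2 fold change of 1.83 ± 0.22 (95% interval 1.34 to 2.32, adjusted p = 0.000536). The gene is a single exon block at chr4:95049034-95052222 on the minus strand, and 232 bp of it are shared with the antisense RNA Junos.

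Junb, a Jun protein that can restrain Jun in growth and takes part in epithelial differentiation, had the smallest p of the members. Its level was 20.2, 13.1 and 12.2 CPM in the controls and 60.6, 62.3 and 68.8 CPM in Pea3 TKO. The mutant samples were tightly grouped and about 3 times the highest control. The log2 fold change was 2.07 ± 0.21 (95% interval 1.60 to 2.54, adjusted p = 0.000239). Junb lies at chr8:84974484-84978718 on the minus strand, and 173 bp of its exons overlap Prdx2 on the other strand.

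Jund, the Jun protein that most resting cells hold at a steady level, had the highest CPM of the members in controls, though not in Pea3 TKO, where Jun was higher, and had the smallest fold change of those tested. It stood at 156, 105 and 89.7 CPM in the controls and at 201, 157 and 172 CPM in Pea3 TKO. The groups did not overlap, but Control replicate 1 (156 CPM) reached almost the level of Pea3 TKO replicate 2 (157 CPM). The log2 fold change of 0.60 ± 0.20 had a 95% interval of 0.16 to 1.03 and an adjusted p of 0.0512. Jund passed the threshold in 7 of 15 other ways of processing the data, whose adjusted p ran from 0.00293 to 0.3. Its single exon block at chr8:70698949-70700616 shares 877 bp with the antisense gene Gm11175.

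Egr1, a zinc finger activator that is a standard readout of ERK signaling, was at 36.6, 46.5 and 38.2 CPM in the controls and at 112, 142 and 208 CPM in Pea3 TKO. The controls lay within a narrow range, and the mutants were higher and more spread, with replicate 3 at the top. The mean rose from 40.4 ± 5.31 to 154 ± 49.2 CPM (SD, n = 3 each), a log2 fold change of 1.93 ± 0.22 (95% interval 1.44 to 2.42, adjusted p = 0.000437). The gene lies at chr18:34859823-34864984 on the plus strand.

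Egr2, known as Krox20 from hindbrain and Schwann cells, had the largest fitted fold change of the tested members, from the lowest control level, and entered the test only through its mutant level. It was at 2.09, 0.312 and 1.43 CPM in the controls (37, 5 and 22 reads) and at 8.57, 9.44 and 13.5 CPM in Pea3 TKO (135, 135 and 230 reads). All mutant samples were well above all controls, and Control replicate 2 was near the floor. The log2 fold change was 3.03 ± 0.60 (95% interval 1.70 to 4.36, adjusted p = 0.00615). Markers of nerve and Schwann cells, which can hold Egr2, summed to 67.2 to 89.5 CPM in controls and 63.5 to 81.2 CPM in Pea3 TKO, and of the 5 tested, edgeR called 0, against 1 at an unadjusted p under 0.05 and 1 with DESeq2. Egr2 lies at chr10:67535475-67542188 on the plus strand. Egr3, a close relative, had 4 reads in Pea3 TKO replicate 2 and none in the other 5 samples.

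**Figure D2:**
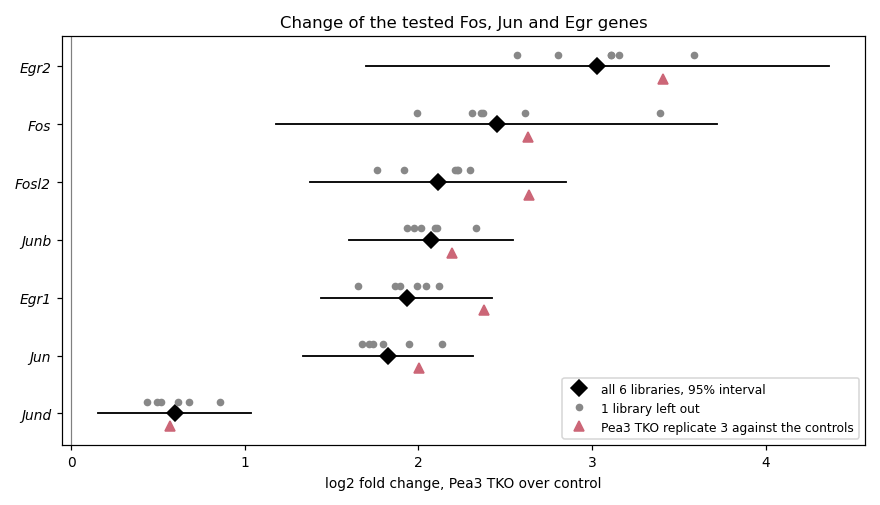
Log2 fold change of Pea3 TKO over control for the 7 tested members (horizontal axis), with bars for the 95% interval of the edgeR fit. The vertical line marks no change. Grey points are fits that left out each sample in turn. Triangles are Pea3 TKO replicate 3 set alone against the controls. In the fit of all samples, Egr2 lies furthest to the right at 3.03 and Jund furthest to the left at 0.60, and 6 of the 7 passed the adjusted threshold.

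Ranked by log2 fold change among the 13087 tested genes, Egr2 was at place 304, Fos at 483, Fosl2 at 622, Junb at 643, Egr1 at 707, Jun at 776 and Jund at 2749. By p-value the order was different, with Junb at 117, Egr1 at 169 and Jun at 222, while Fos was at 1636. The median log2 fold change over all tested genes was 0.01.

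Pea3 TKO replicate 3 was the highest sample for 6 of the 7 tested members, and Jund was highest in replicate 1. Control replicate 1 was the highest control for 5 of 7, Fos, Jun, Junb, Jund and Egr2. Pea3 TKO replicate 3 was also the mutant sample with Y-linked transcripts and with the lowest sum of mesenchyme markers of all 6 samples. This sample was then set alone against the 3 controls, a setting chosen after its values were seen, and since it was the highest for most members the result gives no independent support. In it 4 members passed, with log2 fold changes of 2.63 for Fosl2, 2.01 for Jun, 2.19 for Junb and 2.38 for Egr1. In that comparison Fos had a log2 fold change of 2.63 (adjusted p = 0.133), Egr2 of 3.41 (adjusted p = 0.0731) and Jund of 0.57 (adjusted p = 0.311). With Y-linked expression as a covariate, 5 members passed and Fos did not (log2 fold change 2.69, adjusted p = 0.0752). The covariate was low only in Pea3 TKO replicates 1 and 2, so in this setting the condition effect rests mainly on replicate 3. Over all genes, those with an unadjusted p under 0.05 went from 4943 to 2723. In a call lost in this setting, sex and the loss of power cannot be told apart.

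The make-up of each family was compared on the scale of CPM per kilobase of exon, which allows levels of different genes to be set side by side. In controls the order was Jund (70.0 ± 20.9), Jun (21.2 ± 7.05), Egr1 (9.02 ± 1.18), Junb (6.60 ± 1.91), Fos (1.67 ± 1.45), Fosl2 (0.585 ± 0.146) and Egr2 (0.376 ± 0.264 CPM per kilobase, SD, n = 3). In Pea3 TKO it was Jund (106 ± 13.3), Jun (75.2 ± 11.1), Egr1 (34.4 ± 11.0), Junb (27.8 ± 1.87), Fos (9.18 ± 1.80), Egr2 (3.09 ± 0.776) and Fosl2 (2.53 ± 0.941). Jund and Jun were apart from each other and from the rest in both groups. Sample ranges of Egr1 and Junb overlapped in both groups, as did those of Fosl2 and Egr2. Fos overlapped Fosl2 in controls and was above Egr2 and Fosl2 in Pea3 TKO.

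The Jun family changed in composition as well as in amount. Jund made up 71.1, 73.9 and 69.9% of the family in controls and 53.4, 51.1 and 47.4% in Pea3 TKO, on the same per-kilobase scale. Jun took 22.3, 19.4 and 23.2% of the family in controls and 34.9, 34.2 and 38.8% in Pea3 TKO. The share of Junb went from 6.68, 6.70 and 6.91% to 11.7, 14.7 and 13.8%. No sample of one group came near the other for any of the 3 genes. The ratio of Jun to Jund, which does not depend on how libraries are scaled, was 0.313, 0.262 and 0.332 in controls and 0.652, 0.669 and 0.818 in Pea3 TKO. The ratio of Junb to Jund was 0.0940, 0.0907 and 0.0988 in controls and 0.219, 0.288 and 0.290 in Pea3 TKO. In a two-sided exact permutation test each of these ratios gave p = 0.1, the smallest that 3 samples against 3 can give, and the ratios were chosen after the values were seen.

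In the Fos family, Fos itself was the main member in 5 of 6 samples, with 68.6 to 83.1% of the per-kilobase level in those samples. In Control replicate 2 it was 38.5%, where only 16 Fos reads were counted, and Fosl2 made up the rest with 61.5%. The ratio of Fosl2 to Fos overlapped between the groups (two-sided exact permutation p = 0.7). Egr1 made up 93.0, 99.1 and 95.3% of the Egr family in controls and 90.8, 91.8 and 92.1% in Pea3 TKO. Its ratio to Egr2 was 13.3, 113 and 20.3 in controls, the highest of these resting on 5 Egr2 reads, and 9.90, 11.4 and 11.7 in Pea3 TKO.

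**Figure D3:**
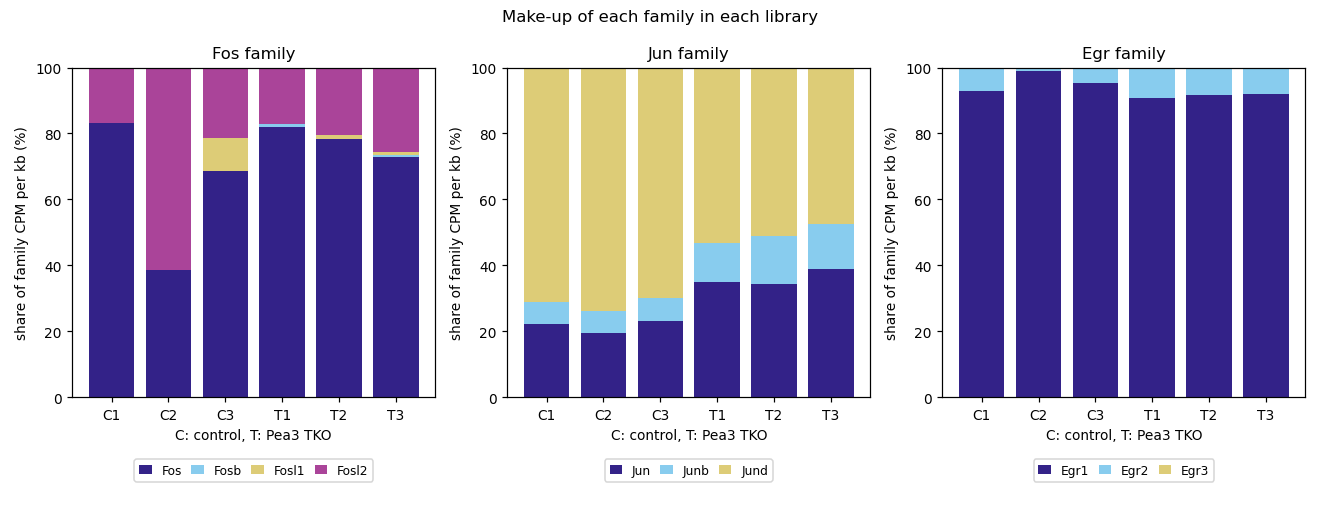
Share of each member in the summed CPM per kilobase of its family (vertical axis, percent) in each of the 3 control (C1 to C3) and 3 Pea3 TKO (T1 to T3) samples. The share of Jund lies at 69.9 to 73.9% in controls and 47.4 to 53.4% in Pea3 TKO, whereas Egr1 remains above 90% of its family in all samples.

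Summed over members, the Fos family rose from 9.73 ± 3.78 to 46.7 ± 12.5 CPM (SD, n = 3 each), the Jun family from 199 ± 61.0 to 480.4 ± 52.4 CPM and the Egr family from 41.7 ± 4.43 to 165 ± 51.8 CPM. The ratios of these means were 4.80, 2.41 and 3.95. The sums follow the abundant members and were not tested.

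Other immediate early genes moved in both directions. Among 32 other immediate early genes tested, 8 increased, 3 decreased and 21 did not pass, with a median log2 fold change of 0.14, beside 13.6% increased and 11.3% decreased over all genes. Klf6, a zinc finger factor, was at 49.3 to 59.5 CPM in controls and 129 to 145 CPM in Pea3 TKO (log2 fold change 1.31, adjusted p = 0.000177), and Ier5 at 90.8 to 102 and 161 to 204 CPM (0.87, adjusted p = 0.00145). The other 6 that rose were Btg2, Csrnp1, Zfp36, Zfp36l1, Atf3 and Gadd45b. The decreased genes were Ctgf, Nr4a1 and Myc. Ctgf, a matricellular protein gene, was at 28.1 to 41.3 CPM in controls and 6.11 to 11.7 CPM in Pea3 TKO (log2 fold change -1.89, adjusted p = 0.00163). The nuclear receptor gene Nr4a1, often brought on together with Egr1, was at 42.5 to 51.0 CPM in controls and 21.8 to 26.8 CPM in Pea3 TKO (-0.91, adjusted p = 0.00409). The number that rose was 4 without Control replicate 2, 4 without Control replicate 3 and 5 without Pea3 TKO replicate 1, and 2 with Pea3 TKO replicate 3 alone or with the Y-linked covariate, where 1 fell.

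Of 12 negative feedback genes of ERK signaling tested, 6 decreased, beside 11.3% of all genes, and 6 did not pass. The median log2 fold change was -0.73, and 0 increased in edgeR, at an unadjusted p under 0.05 or in DESeq2. Dusp6, an ERK phosphatase, was at 761, 852 and 816 CPM in controls and 168, 157 and 266 CPM in Pea3 TKO (log2 fold change -2.04, adjusted p = 0.000168). Spry4 (-2.78), Spry1 (-0.85) and Il17rd, which act on the receptor or on Ras, fell as well, with Dusp4 and Dusp9. The per-kilobase ratio of Egr1 to Dusp6 was 0.0336, 0.0381 and 0.0327 in controls and 0.466, 0.633 and 0.547 in Pea3 TKO. Since Egr1 was above and Dusp6 below all controls in every Pea3 TKO sample, this ratio had to separate the groups. Its two-sided exact permutation p of 0.1, the smallest possible, therefore adds no support. With Pea3 TKO replicate 3 alone, 3 of these genes passed as decreased.

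Regulators that act on the members were looked at next. Of 15 SRF and CREB regulators tested, Crtc3 increased, Srf and Elk3 decreased, and 12 did not pass. Over all genes 13.6% increased and 11.3% decreased. Srf was at 66.6 to 75.2 CPM in controls and 45.7 to 50.1 CPM in Pea3 TKO (log2 fold change -0.56, adjusted p = 0.0131), and Elk3, a ternary complex factor, at 76.7 to 86.6 and 43.6 to 54.5 CPM (-0.71, adjusted p = 0.00588). Crtc3 lost its call when any 1 sample was left out, and Srf did without Control replicate 3 (adjusted p = 0.0568) or Pea3 TKO replicate 2 (adjusted p = 0.0526). Both Egr corepressor genes increased. Nab2 was at 35.0 to 59.3 CPM in controls and 75.9 to 102 CPM in Pea3 TKO (0.93, adjusted p = 0.0106). Nab1 was at 89.1 to 108 CPM in controls and 129 to 153 CPM in Pea3 TKO (0.51, adjusted p = 0.0183). Nab1 lost its call without Control replicate 2, Pea3 TKO replicate 2 or Pea3 TKO replicate 3. With the Y-linked covariate, whose limit is given above, all 5 of these genes lost their calls. The adjusted p was 0.0654 for Nab2, 0.0974 for Nab1, 0.0942 for Elk3, 0.207 for Srf and 0.195 for Crtc3.

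Of 23 ERK, JNK and p38 kinase genes tested, 6 increased, 1 decreased and 16 did not pass. The median log2 fold change was 0.08, and over all genes 13.6% increased and 11.3% decreased. Mapk3, which encodes ERK1, was at 58.6 to 59.0 CPM in controls and 83.1 to 87.7 CPM in Pea3 TKO (0.53, adjusted p = 0.0105). Rps6ka5, which encodes the histone kinase MSK1, was at 54.1 to 72.0 CPM in controls and 13.1 to 28.02 CPM in Pea3 TKO (log2 fold change -1.605, adjusted p = 0.00217), and it lost its call with the Y-linked covariate (-1.18, adjusted p = 0.0744), as did Mapk3 (adjusted p = 0.0908). The count of increased kinases depended on single samples: it was 1 without Control replicate 2, 1 without Control replicate 3, 3 without Pea3 TKO replicate 1, 2 without Pea3 TKO replicate 2 and 4 without Pea3 TKO replicate 3. It was 0 in edgeR with the Y-linked covariate (5 at an unadjusted p under 0.05) and with Pea3 TKO replicate 3 alone (4 at an unadjusted p under 0.05), against 7 with DESeq2 on all samples. The increased kinase gene furthest to the right in the plot of lists is Mapk10. It had 1, 0 and 0 reads in controls and 14, 41 and 13 in Pea3 TKO, so that its fitted fold change depends on the prior count. Mapk10 had enough reads to be tested only through the Pea3 TKO samples. A high level there set its place among the tested genes and in the count of 6.

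Of 14 other bZIP genes whose proteins can pair with Fos or Jun proteins, 2 increased, among them Maf, 2 decreased, Jdp2 and Atf4, and 10 did not pass. These counts stand beside 13.6% increased and 11.3% decreased over all genes. Maf was at 7.95, 8.29 and 4.42 CPM in controls and 23.9, 16.8 and 25.7 CPM in Pea3 TKO (log2 fold change 1.68, adjusted p = 0.00437). Jdp2, whose product represses AP-1 sites, was at 72.5 to 90.8 CPM in controls and 25.4 to 44.2 CPM in Pea3 TKO (-1.12, adjusted p = 0.00444). The groups did not overlap for either gene.

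Genes described as AP-1 targets in epithelium included several large increases. Of 16 tested, 9 increased, 2 decreased and 5 did not pass, beside 13.6% increased and 11.3% decreased over all genes. The median log2 fold change was 1.82. The keratin Krt6a, a marker of activated keratinocytes, was at 10.9, 2.12 and 1.04 CPM in controls and 146, 101 and 83.9 CPM in Pea3 TKO (4.53, adjusted p = 0.00138). The matrix protease gene Mmp9 was at 0.789, 0 and 0.390 CPM in controls and 8.00, 28.2 and 29.8 CPM in Pea3 TKO (5.75, adjusted p = 0.00115). Sprr1a, a cornified envelope precursor, was at 0.620, 0.187 and 0 CPM in controls and 6.99 to 12.6 CPM in Pea3 TKO (4.96, adjusted p = 0.00305). The decreased genes included the integrin Itga2 (6.42 to 11.4 CPM in controls, 0.294 to 1.26 CPM in Pea3 TKO). Mmp9, Sprr1a, Cd44, S100a4 and Areg, all among the 9 increased, had enough reads to be tested only through the Pea3 TKO samples. A high level there set their place among the tested genes. The fold changes of Mmp9 and Sprr1a also depend on the prior count of the fit. The number that increased was 6 without Control replicate 3, 4 with the Y-linked covariate and 1 with Pea3 TKO replicate 3 alone. Most epithelium markers moved in the same direction, as given above, and their part in this result was not tested.

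Heat shock and stress genes were examined because immediate early genes also respond to stress and handling. Of 20 tested, 6 increased, 3 decreased and 11 did not pass, beside 13.6% increased and 11.3% decreased over all genes. The median log2 fold change was 0.05. The small heat shock gene Hspb1 was at 28.6, 13.7 and 8.13 CPM in controls and 191, 121 and 103 CPM in Pea3 TKO (3.04, adjusted p = 0.000996). Hspa1b, an inducible chaperone gene, was at 24.6, 14.1 and 10.1 CPM in controls and 134, 105 and 84.3 CPM in Pea3 TKO (2.72, adjusted p = 0.000437). Hspa1a also rose, and because it is a near-identical copy of Hspa1b the split of reads between them is uncertain. Txnip (1.89), Ddit4 and Gadd45a (1.01) were the others that rose, and the chaperone genes Hspe1, Hspd1 and Hspa5 fell. For Hspb1, Hspa1b, Hspa1a and Txnip, Control replicate 1 was the highest control, as for 5 of the 7 tested members. In these genes Pea3 TKO replicate 3 was the lowest mutant sample, whereas it was the highest for 6 of the 7. Gadd45a was also lowest of the mutants in replicate 3, but its highest control was replicate 2. Ddit4 was highest in Control replicate 1 and in Pea3 TKO replicate 3, with 82.0, 64.5 and 84.0 CPM in Pea3 TKO replicates 1, 2 and 3. The part of stress or handling in the levels of the members was not tested.

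**Figure D4:**
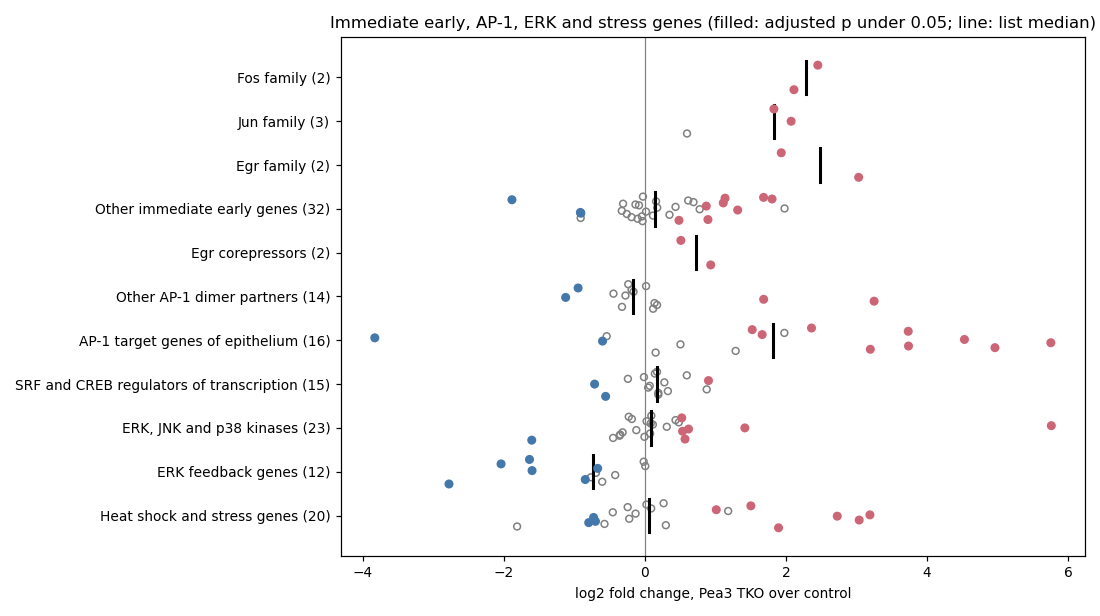
Log2 fold change of Pea3 TKO over control (horizontal axis) for the tested genes of each list (vertical axis), 1 point per gene, filled where the adjusted p was under 0.05. The Fos, Jun and Egr families lie to the right of 0, the 6 called ERK feedback genes lie to the left, and the 32 other immediate early genes spread to both sides around a median of 0.14.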

How the data were processed

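RNA of laser-captured E14.5 lacrimal gland epithelium was measured in 3 control and 3 Pea3 TKO samples, grouped by the genotype in the labels. The authors deposited 1 table of raw counts of reads per gene symbol for each sample, without normalization. The submitters' processing notes name bcl2fastq 2.17, STAR 2.5.2b, featureCounts 1.5.0-p3, DESeq and the build mm10, and per the labels the RNA was amplified with an Ovation kit before library preparation. The annotation and the strand setting are not given in the sources used here. Totals of 14194775 to 17860140 counts per sample set the precision of low genes.

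From these counts, genes were kept by filterByExpr of edgeR 4.0.16 (R 4.3.3), which left 13087 of 23420, scaled by TMM and compared with glmQLFit and glmQLFTest, in which condition was the sole term, with Benjamini-Hochberg adjustment over all tested genes. The SE was taken from the log2 fold change and its F statistic. CPM per kilobase used the union of exons in GENCODE M21, and positions are from the same annotation, in which 21777 symbols were found. Replicates of a group differed by at least 16.0 times the sampling noise (chi-square per degree of freedom), so none was the same library deposited again. DESeq2 1.42.0, other scalings and filters, a replicate block, a Y-linked covariate and leaving out each sample were tried.

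The text names all 10 members, up to 4 genes with the smallest p of each list, genes behind counts of 5 or fewer, the 5 genes most like Fos, Egr1 and Jun, and Etv4, Etv5 and Etv1. The remaining called genes of a list are named to complete its count, after their values were seen, and a few genes under this rule are not reported here. The members and lists were chosen with earlier results of these data known.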

Additional observations from a re-analysis of the deposited data

How the results depend on the processing

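The 6 increased members kept their direction under all 15 alternatives, and the number called ran from 5 with the Y-linked covariate to 7 with DESeq2. Leaving out 1 sample gave log2 fold changes of 1.99 to 3.39 for Fos, 1.67 to 2.13 for Jun, 1.65 to 2.12 for Egr1 and 2.57 to 3.59 for Egr2, and 6 to 7 members called. Over all genes, 1948 to 3344 were called when 1 sample was left out (1131 to 1948 increased, 799 to 1417 decreased), against 3268 with all samples (1783 and 1485). Other immediate early genes that increased then numbered 4 to 9 and kinases 1 to 7. With the Y-linked covariate 778 genes were called (492 increased, 286 decreased), with 2 other immediate early genes increased and 1 decreased, 4 AP-1 targets increased and 0 kinases increased. With Pea3 TKO replicate 3 alone against the controls, chosen after seeing the data and with the lone sample assumed to vary like the controls, 597 were called (315 and 282) and 4 members, without Fos and Egr2, with 2 other immediate early genes, 1 AP-1 target and 0 kinases increased and 3 ERK feedback genes decreased. The mesenchyme marker Lum reversed under these settings, to -0.82 and -0.71. The cause of these changes was not tested further. With the replicate block, 3191 genes (1769 increased, 1422 decreased) and 7 members were called, Jund at an adjusted p of 0.0155. Deviations of same-numbered samples had correlations of 0.14, -0.06 and 0.05. With 3 samples a group these values cannot decide whether same-numbered samples shared a litter or a batch. At 3 samples a group, levels under the floor of 3 reads were not readable, which limits Fosb, Fosl1 and Egr3.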

Other observations

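Over the 6 samples, after removal of the group means of log2(CPM + 1), correlations between members ranged from high to negative. Pearson's r was 0.91 between Fos and Jun and 0.90 between Jun and Junb, whereas it was -0.30 between Fos and Egr1 and -0.10 between Jun and Egr1. Among 9726 tested genes with a mean of at least 10 CPM, the 5 nearest to Fos by this measure were Rab11b, Tacc2, Wdr13, Lonp2 and Bcl2l14 (r 0.989 to 0.997), those nearest to Egr1 were Mad2l1bp, Tuba1b, Zwilch, Aurkb and Samd1 (0.997 to 0.999), and those nearest to Jun included Osbpl10, Parp9, Rbfa and Arl2bp (0.992 to 0.997). The samples share libraries and depth, and these values are a description. With 6 samples they cannot decide whether members vary in separate patterns. The nearest genes are the highest of 9726, and on so few samples such values can arise without any link. Tuba1b and Aurkb, a tubulin and a mitotic kinase gene, were lower in Pea3 TKO (log2 fold change -0.62 and -0.47, adjusted p = 0.0177 and 0.0297), opposite to Egr1. Egr4, a further Egr gene outside the 10 members, had no read in controls and 9, 2 and 0 reads in Pea3 TKO and was not tested.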
